A study of Mus musculus with 13 samples.

Results

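The HoxB cluster on mouse chromosome 11 holds 10 Hoxb genes, and these 10 of the 22367 protein-coding genes of the GENCODE vM1 annotation are described here by the ChIP-seq peaks called over them. The genes were taken by name, as Hoxb1 to Hoxb9 and Hoxb13, without using any measured value. Earlier results of these data were, however, known when they were chosen. In ChIP-seq an antibody enriches the DNA that a protein or histone mark sits on, and a peak is a region in which that DNA exceeds the background. All 5 peak lists analysed here came from wild-type embryonic stem cells (mESCs) that the labels describe as a 129/1 XY line. In 4 lists the antibody recognised endogenous AEBP2 (replicates 1 and 2) or H3K27me3 (replicates 1 and 2), the labels naming the histone antibody only as one against H3K27. The fifth list, FS2-AEBP2, had 1 sample and no replicate, and came from AEBP2 with a Flag-StrepII tag. The study's methods describe this protein in the mass spectrometry section, as full-length AEBP2 tagged at its N terminus. It was expressed there from the pCAG plasmid in E14 cells, whereas the labels name the 129/1 line. The section on ChIP does not restate the construct. The ChIP of FS2-AEBP2 used beads blocked with BSA and yeast tRNA. The samples of SUZ12, the inputs and the AEBP2 KO cells were not analysed here, so no list from mutant cells stands beside these. Nothing in the labels says that replicates were separate cultures, and the H3K27me3 lists may carry swapped replicate numbers, since their names and their records disagree.

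Hox genes encode homeodomain transcription factors that give cells their position along the head-to-tail axis of the embryo. They lie in clusters in the order in which they are used, so that Hoxb1, at one end, is switched on early and in the hindbrain, and Hoxb13, at the other, late and near the tail. PRC2 is the Polycomb complex that places H3K27me3 on histone H3, a mark of silent developmental genes, and in mESCs the Hox clusters are textbook targets of it. AEBP2 is a zinc finger protein that binds PRC2 as an accessory subunit. CpG islands, stretches rich in the dinucleotide CG, are the usual sites of PRC2 in mammals.

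The cluster ran from the start of Hoxb13 to the end of Hoxb1 (mm9, chr11:96055630-96229570, 173941 bp), with every Hoxb gene on the plus strand. From one end to the other the genes were Hoxb13 (chr11:96055630-96058761), Hoxb9 (chr11:96132771-96137909), Hoxb8 (chr11:96143219-96146639), Hoxb7 (chr11:96145571-96151650), Hoxb6 (chr11:96153790-96162883), Hoxb5 (chr11:96163909-96167434), Hoxb4 (chr11:96177998-96182952), Hoxb3 (chr11:96184640-96207999), Hoxb2 (chr11:96212946-96217003) and Hoxb1 (chr11:96227066-96229570). Hoxb8 and Hoxb7 overlapped in the annotation. Hoxb1 to Hoxb9 filled a stretch of 96800 bp, and an interval of 74009 bp without a Hoxb gene separated Hoxb9 from Hoxb13.

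Sequences from 4 places show the contrasts that the peaks followed or did not follow. Each is 250 bases of the plus strand of mm9 with every CG in capitals. The first pair lies just upstream of a gene start, the next is the middle of the longest CpG-island-like region that lay wholly within the stronger blocks of every list, inside an intron of Hoxb3, and the last is the middle of the longest stretch of the cluster without a peak in any list.
Upstream of Hoxb13 (chr11:96055380-96055629): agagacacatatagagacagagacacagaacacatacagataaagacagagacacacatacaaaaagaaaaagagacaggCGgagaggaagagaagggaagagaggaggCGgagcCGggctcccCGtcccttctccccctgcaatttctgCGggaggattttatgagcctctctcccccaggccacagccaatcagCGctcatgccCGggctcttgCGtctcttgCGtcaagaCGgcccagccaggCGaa
Upstream of Hoxb4 (chr11:96177748-96177997): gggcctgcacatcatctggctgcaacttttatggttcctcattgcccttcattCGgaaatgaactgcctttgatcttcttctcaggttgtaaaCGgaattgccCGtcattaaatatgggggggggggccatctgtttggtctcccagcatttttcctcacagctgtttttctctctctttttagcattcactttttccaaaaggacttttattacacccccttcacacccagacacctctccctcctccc
Hoxb3 intron (chr11:96194116-96194365): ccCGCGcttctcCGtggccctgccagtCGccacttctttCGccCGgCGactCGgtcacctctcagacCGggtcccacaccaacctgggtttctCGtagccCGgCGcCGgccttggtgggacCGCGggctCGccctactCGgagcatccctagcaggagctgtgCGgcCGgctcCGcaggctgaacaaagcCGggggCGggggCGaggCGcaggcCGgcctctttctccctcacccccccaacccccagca
Hoxb9 to Hoxb13 interval (chr11:96088613-96088862): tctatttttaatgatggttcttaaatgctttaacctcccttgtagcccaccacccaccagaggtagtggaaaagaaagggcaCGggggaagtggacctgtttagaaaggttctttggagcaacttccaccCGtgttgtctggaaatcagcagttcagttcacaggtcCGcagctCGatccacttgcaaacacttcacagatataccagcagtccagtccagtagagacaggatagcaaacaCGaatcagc
The segment upstream of Hoxb13 held 11 CG and lay in a peak of 4 lists, all but AEBP2 replicate 1. The segment upstream of Hoxb4 held 3 CG and lay in a peak of all 5 lists. The Hoxb3 intron segment held the most CG of the 4, 25, and the peak-free segment held 5. The median over the same 250 bases upstream of all 22367 genes was 8 CG. Peaks were thus called upstream of a gene with fewer CG than this median and of one with more. The stronger blocks differed more. They covered 30.4% and 6.4% of the Hoxb4 segment in the AEBP2 replicates, 42.0% for FS2-AEBP2 and 100% in both H3K27me3 lists. Of the Hoxb13 segment they covered 0% and 61.2%, 72.4%, and 100% and 56.0%, in the same order. The Hoxb3 intron segment was 100% in blocks in every list.

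A peak of AEBP2 and of H3K27me3 was called near the start of every Hoxb gene, with low-scoring peaks at Hoxb13 and Hoxb1 in AEBP2 replicate 1. A peak lay within 1 kb of the gene start for 10 of 10 genes in AEBP2 replicate 1, where 9.08% of all protein-coding genes had one, and for 10 of 10 in AEBP2 replicate 2, where 22.3% had one. The same held in H3K27me3 replicate 1 (17.0% of all genes), in H3K27me3 replicate 2 (17.7%) and for FS2-AEBP2 (6.53%). Required in both replicates, the peak was present at all 10 starts for AEBP2 (8.44% of all genes) and for H3K27me3 (15.0%). Over the gene body the count was also 10 of 10, beside 9.53% of all genes in both AEBP2 replicates, 17.3% in both H3K27me3 replicates and 7.69% for FS2-AEBP2. These counts come from overlaps of at least 1 bp and no test was made. For both AEBP2 replicates the start count was 9 with a window of 500 bp or with at least 50% of the window covered, and 8 when peaks under each list's median score were dropped, and it stayed at 10 for H3K27me3 and FS2-AEBP2.

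The exact start base lay inside a peak for all 10 genes in every list but AEBP2 replicate 1, in which the start of Hoxb13 lay outside and the nearest peak began 841 bp downstream. Counting each protein-coding transcript, the 10 genes had 16 start sites, and 15 of them lay in a peak of AEBP2 replicate 1 and 16 in a peak of each other list. The window of 1 kb on either side of the gene start lay wholly inside peaks in all 5 lists for 7 genes, Hoxb9 to Hoxb3 in map order. The remaining 3 genes sit at the ends of the cluster. Hoxb13, known for its role in the tail and the prostate, had 7.996% of this window inside peaks in AEBP2 replicate 1 and 100% in the other 4 lists. Hoxb2, a hindbrain gene, had 89.0% in AEBP2 replicate 1 and 100% elsewhere. Hoxb1, also a hindbrain gene, had 75.0% in AEBP2 replicate 1, 89.4% in AEBP2 replicate 2, 96.9% for FS2-AEBP2 and 100% in both H3K27me3 lists. The shortfall was therefore in the AEBP2 lists, and for Hoxb13 and Hoxb2 in 1 of them only. For the exact start base, the transcript starts and the fully covered window, the share of all genes was not computed. The shares given above for any overlap within 1 kb do not apply to these stricter counts.

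**Figure D1:**
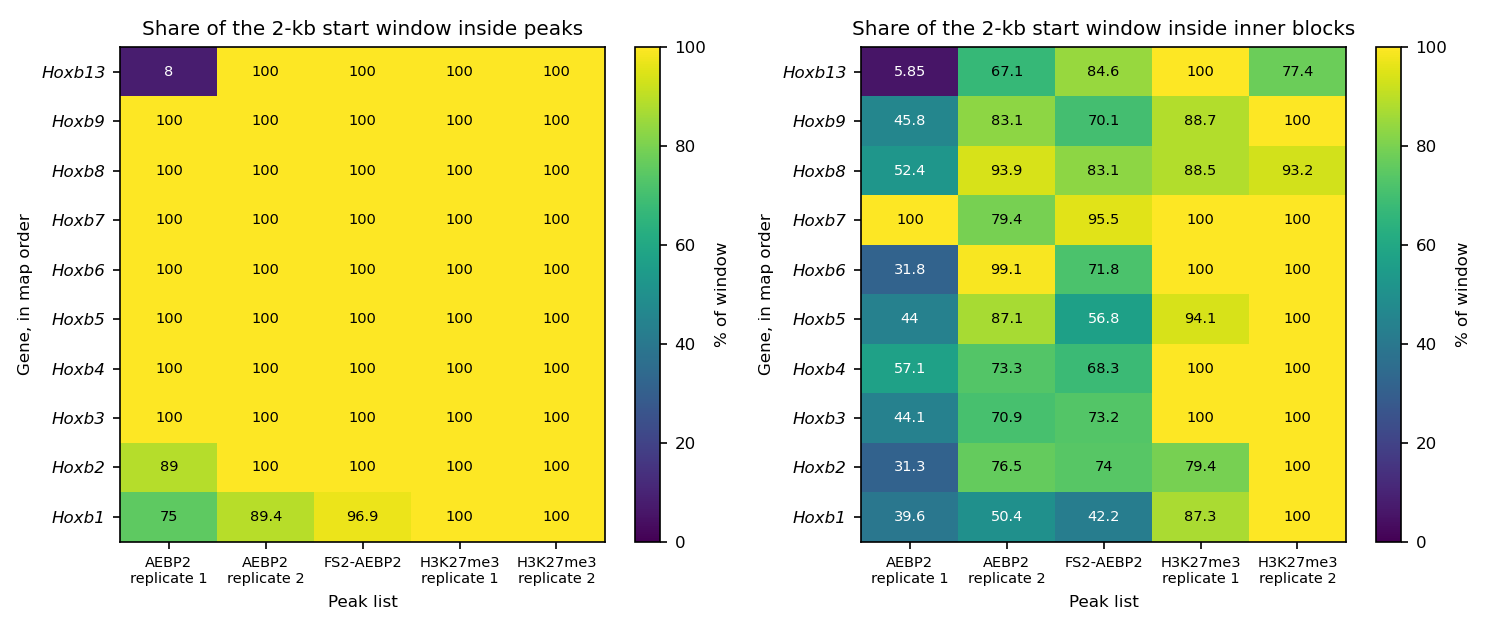
Percentage of the window of 1 kb on either side of each Hoxb gene start that lay inside peaks (left) and inside the inner blocks of peaks (right), for the 5 peak lists, with genes in map order and colour running from 0% to 100%. Most windows were fully inside peaks, whereas the inner blocks in AEBP2 replicate 1 covered between 5.85% at Hoxb13 and 100% at Hoxb7.

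Broad peaks hide differences within them, so the inner blocks of each peak were used as a finer measure. Each line of the lists carries a set of blocks inside its peak, in the layout in which MACS2 reports the stronger segments of a broad call, although the sources used here do not state the threshold behind them. On this scale the genes differed. In AEBP2 replicate 1 the start base of only 2 genes, Hoxb7 and Hoxb1, lay in a block, and blocks filled a median of 44.1% of the start window over the 10 genes. In AEBP2 replicate 2 the start of 8 genes lay in a block, all but Hoxb4 and Hoxb2, and the median was 77.9%. For FS2-AEBP2 the start of 5 genes did (Hoxb13, Hoxb7, Hoxb6, Hoxb5 and Hoxb1) with a median of 72.5%. In H3K27me3 replicate 1 the starts of Hoxb8 and Hoxb2 were outside a block and the median was 97.0%, and in replicate 2 only that of Hoxb13 was outside and the median was 100%. Over all peaks of a list, blocks made up 45.4% and 51.1% of the peak length in the AEBP2 replicates, 40.1% and 50.7% in the H3K27me3 replicates and 56.2% for FS2-AEBP2. The share of all protein-coding genes whose start base lay in a block was not computed. The gene counts for blocks can therefore not be called high or low.

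Hoxb7, a member of the group used in the trunk, had the fullest start window of the 10 genes in AEBP2 replicate 1 and for FS2-AEBP2. Blocks covered 100% of its start window in AEBP2 replicate 1, 79.4% in replicate 2, 95.5% for FS2-AEBP2 and 100% in both H3K27me3 lists. Hoxb8, a trunk gene also known from myeloid progenitors, had 52.4%, 93.9%, 83.1%, 88.5% and 93.2% in AEBP2 replicates 1 and 2, FS2-AEBP2 and H3K27me3 replicates 1 and 2. Hoxb8, Hoxb7 and Hoxb4 were the 3 genes with at least 50% of the window in blocks in all 5 lists. For this count, too, no share over all genes was computed.

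Hoxb6, another trunk gene, differed between the AEBP2 replicates at its start. Blocks filled 31.8% of the start window in AEBP2 replicate 1 and 99.1% in replicate 2, 71.8% for FS2-AEBP2 and 100% in both H3K27me3 lists. Over the gene body they filled 74.7% and 91.5% in the AEBP2 replicates, 91.0% for FS2-AEBP2 and 94.0% and 97.4% in the H3K27me3 replicates. The body was thus filled more than the start window for FS2-AEBP2 and in the first AEBP2 replicate, and less in the other 3 lists. The longest AEBP2 block of the cluster lay in Hoxb6 in both replicates, 4948 bp in replicate 1 and 5891 bp in replicate 2, which ranked 3 and 7 by length among all blocks of those lists. It took in the second transcript start of Hoxb6, at chr11:96160269, which lay in a block in all 5 lists. An H3K27me3 block of replicate 1, 5925 bp long, covered nearly the same bases (chr11:96156769-96162693, against chr11:96156778-96162668 for AEBP2 replicate 2).

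Hoxb9, whose loss is known to alter the ribs, had 45.8% and 83.1% of the start window in blocks in the AEBP2 replicates, 70.1% for FS2-AEBP2, and 88.7% and 100% in the H3K27me3 replicates. Hoxb5, a gene used in the gut and its nerves, had 44.0% and 87.1%, then 56.8%, then 94.1% and 100%. Hoxb4, long studied in blood stem cells, had 57.1% and 73.3%, 68.3%, and 100% in both H3K27me3 lists. At all 3 genes the values for AEBP2 replicate 1 were the lowest and those for H3K27me3 replicate 2 the highest or joint highest.

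Hoxb3, the longest gene of the cluster (23360 bp) and one that acts in the hindbrain, had blocks over 44.1% and 70.9% of the start window in the AEBP2 replicates, 73.2% for FS2-AEBP2 and 100% in both H3K27me3 lists. Its body was filled to 51.0% and 80.9% in the AEBP2 replicates, 85.8% for FS2-AEBP2, and 95.5% and 98.3% for H3K27me3. The longest H3K27me3 block of the cluster was here in both replicates, 9880 bp within Hoxb3 in replicate 1 and 21710 bp from Hoxb4 into Hoxb3 in replicate 2.

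At the cluster ends, Hoxb2 had blocks over 31.3% and 76.5% of the start window in the AEBP2 replicates, 74.0% for FS2-AEBP2, and 79.4% and 100% for H3K27me3. Hoxb1 had 39.6% and 50.4%, 42.2%, and 87.3% and 100%, and its value was the lowest of the 10 genes in AEBP2 replicate 2 and for FS2-AEBP2. Hoxb13 had 5.85% and 67.1%, 84.6%, and 100% and 77.4%. At Hoxb13 the AEBP2 replicates were far apart, and FS2-AEBP2 lay above both.

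In the AEBP2 lists the peaks that held these starts were among the longest in the middle of the cluster and shorter at its ends. In AEBP2 replicate 1 the starts of Hoxb8, Hoxb7, Hoxb6 and Hoxb5 shared a peak of 33000 bp, the second longest of 2877, with a score above 98.3% of the list. The scale of the score is not given in the sources used here, so it was read only as a rank within a list. Hoxb3 lay in the third longest peak of that list, 24615 bp with a score above 96.2% of the list. Hoxb4, between them, lay in a peak of 13555 bp whose score exceeded only 54.7% of the list. Hoxb2 had a separate peak of 4215 bp above 92.8% of the list. Hoxb1 had one of 1857 bp above 7.47%, and the peak in the body of Hoxb13 was 1177 bp long and above 26.7%.

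In AEBP2 replicate 2 the starts of 8 genes, Hoxb9 to Hoxb2, lay in 1 peak with 66 inner blocks, the longest peak of the list at 87283 bp, with a score above 97.6% of the list. Hoxb1 and Hoxb13 had peaks of their own, of 4043 bp and 6028 bp, above 82.5% and 76.7% of the list. For FS2-AEBP2 the longest peak of the list, 75653 bp with 89 blocks and a score above 99.5% of the list, took in 7 starts, Hoxb8 to Hoxb2. Hoxb9 had a separate FS2-AEBP2 peak of 10535 bp (above 91.1%), Hoxb13 one of 11737 bp (above 86.9%) and Hoxb1 one of 3403 bp (above 48.6%). In all 3 AEBP2 lists the peak at Hoxb1 thus had a lower rank than the peak with Hoxb8 to Hoxb5.

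H3K27me3 formed longer domains. In replicate 1 the starts of 9 genes, Hoxb9 to Hoxb1, lay in 1 peak of 135110 bp, and in replicate 2 the same 9 lay in 1 peak of 125989 bp, each the second longest peak of its list. Hoxb13 lay in a second H3K27me3 domain, of 46191 bp in replicate 1 and 36614 bp in replicate 2, with scores above 97.3% and 98.6% of the lists. Hoxb1 and Hoxb2 were thus inside the same H3K27me3 peak in both replicates but in separate AEBP2 peaks in all 3 AEBP2 lists.

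**Figure D2:**
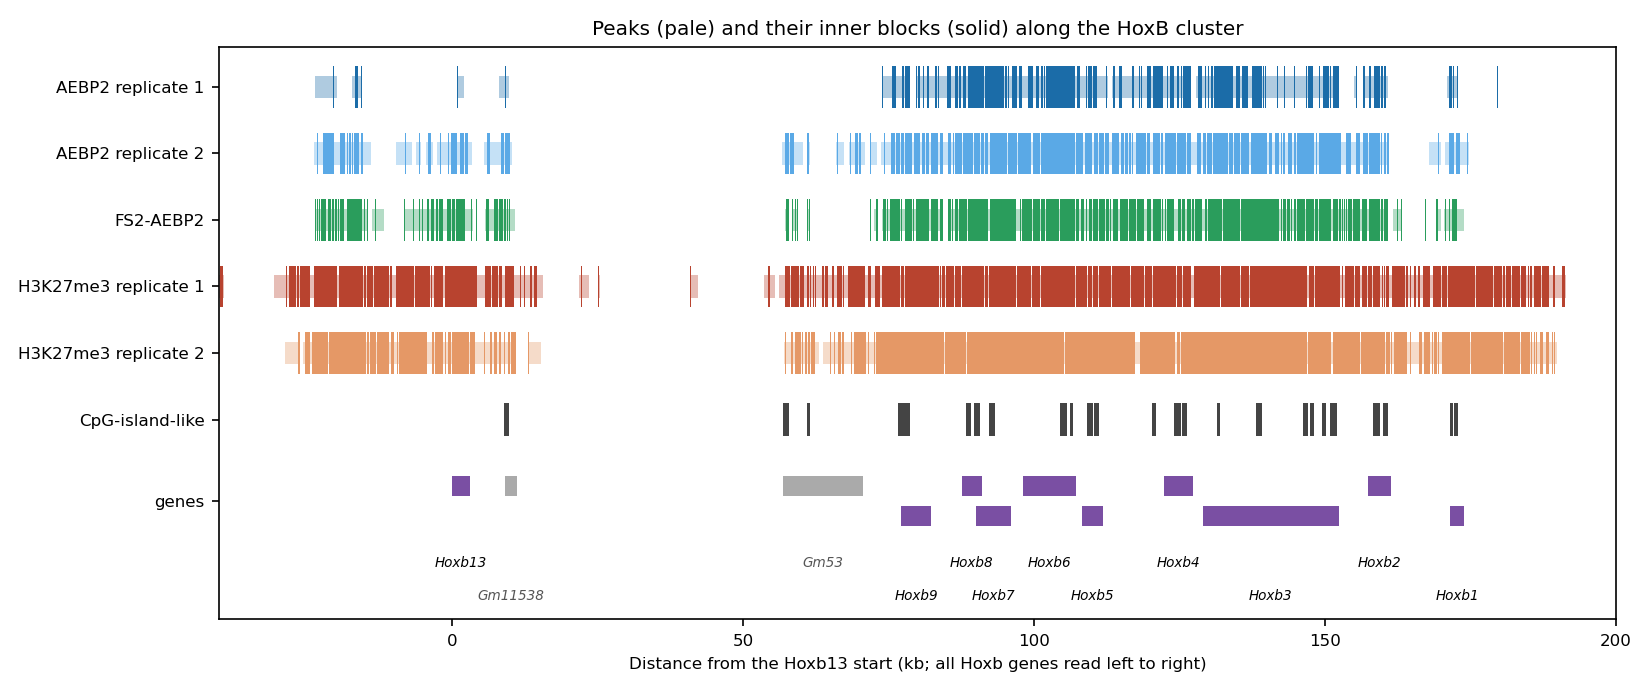
Map of the HoxB cluster, with distance from the Hoxb13 start in kb on the horizontal axis. Pale bars are peaks and solid bars their inner blocks in each of the 5 lists, dark bars are CpG-island-like regions, and purple bars are Hoxb genes with Gm53 and Gm11538 in grey. Peaks nearly filled the part from Hoxb9 to Hoxb1 and left a wide space between Hoxb13 and Gm53.

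The cover of the cluster split into a filled part and an open part. Over the whole cluster, peaks covered 49.2% in AEBP2 replicate 1 and 63.4% in replicate 2 (56.3% ± 10.1, SD, n = 2), 59.9% for FS2-AEBP2, and 79.7% and 74.3% in the H3K27me3 replicates (77.0% ± 3.76, SD, n = 2). In the Hoxb1 to Hoxb9 stretch the cover was 82.1% and 92.2% for AEBP2 (87.1% ± 7.14, SD, n = 2), 91.7% for FS2-AEBP2 and 100% in both H3K27me3 lists. In the Hoxb9 to Hoxb13 interval it was 6.63% and 24.3% for AEBP2 (15.5% ± 12.5, SD, n = 2), 16.6% for FS2-AEBP2, and 52.2% and 39.7% for H3K27me3 (45.9% ± 8.84, SD, n = 2). In each list the stretch was covered more than the interval, and the gap between them exceeded the difference between replicates. With 2 samples a group an exact test cannot pass a threshold of 0.05, and none was made.

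Inner blocks gave the same order. They filled 45.4% and 69.4% of the stretch in the AEBP2 replicates, 70.4% for FS2-AEBP2 and 88.7% and 93.5% for H3K27me3. In the interval they filled 1.41% and 8.61%, 9.78%, and 27.6% and 20.3%. Peaks of all 5 lists overlapped on 84699 bp, which was 48.7% of the cluster, 81.2% of the stretch and 6.63% of the interval. No base of the stretch was free of peaks in all lists, whereas 47.8% of the interval was.

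The spaces between neighbouring genes were not alike. Between Hoxb7 and Hoxb6 and between Hoxb6 and Hoxb5, peaks of every list covered 100% of the sequence. Between Hoxb9 and Hoxb8 the cover was 100% in 4 lists and 84.1% for FS2-AEBP2. Between Hoxb5 and Hoxb4 it was 100% in all lists but AEBP2 replicate 1, in which it was 92.7%. The same list alone fell short between Hoxb4 and Hoxb3 (69.0%) and between Hoxb3 and Hoxb2 (30.7%).

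The space of 10062 bp between Hoxb2 and Hoxb1 separated AEBP2 from the mark. H3K27me3 peaks covered 100% of it in both replicates, and AEBP2 peaks covered 4.97% and 28.6% (16.8% ± 16.7, SD, n = 2) and FS2-AEBP2 peaks 34.7%. Inner blocks filled 68.7% and 63.6% of it for H3K27me3, 1.10% and 3.72% for AEBP2 and 9.18% for FS2-AEBP2. No value for AEBP2 or FS2-AEBP2 overlapped those for H3K27me3. This was not particular to the space, since it also held over the whole cluster, the Hoxb1 to Hoxb9 stretch and the Hoxb9 to Hoxb13 interval. Within the stretch, the space between Hoxb2 and Hoxb1 was the only one between genes with less than 50% cover in all 3 AEBP2 lists.

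**Figure D3:**
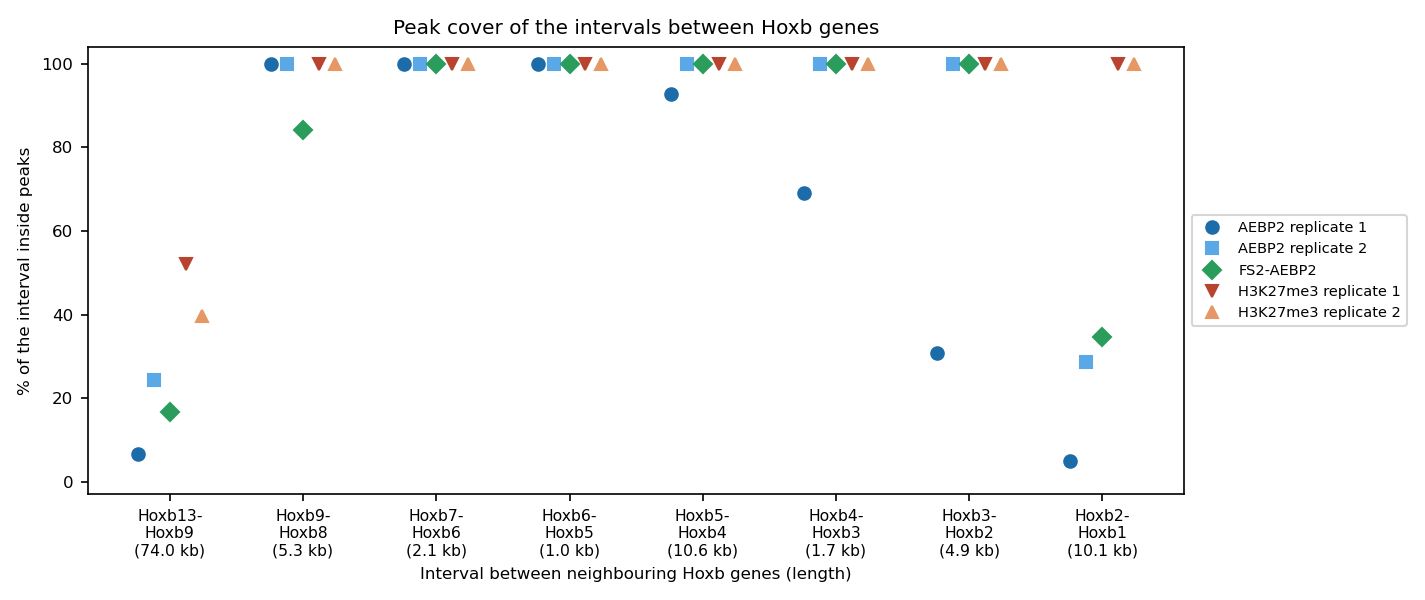
Percentage of each space between neighbouring Hoxb genes that lay inside peaks, with the space and its length in kb on the horizontal axis and 1 point for each of the 5 lists. The H3K27me3 points stayed at 100% for every space from Hoxb9 to Hoxb1, and the AEBP2 and FS2-AEBP2 points fell to between 4.97% and 34.7% between Hoxb2 and Hoxb1.

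Peaks of AEBP2 lay within the H3K27me3 domains. Of the bases of the cluster inside AEBP2 replicate 1 peaks, 100% were inside peaks of both H3K27me3 lists. For AEBP2 replicate 2 the shares were 100% in H3K27me3 replicate 1 and 99.7% in replicate 2, and for FS2-AEBP2 100% in both. Since H3K27me3 peaks covered 100% of the Hoxb1 to Hoxb9 stretch, any AEBP2 peak there had to lie within them. Of the 85543 bp in AEBP2 replicate 1 peaks, 79459 bp lay in that stretch. In the other direction the AEBP2 peaks covered 61.7% (replicate 1) and 79.6% (replicate 2) of the bases in H3K27me3 replicate 1, and FS2-AEBP2 peaks covered 75.2%. For H3K27me3 replicate 2 these shares were 66.2%, 85.1% and 80.6%. The AEBP2 lists were nested as well, with 100% of the bases of replicate 1 inside replicate 2 and 77.5% of those of replicate 2 inside replicate 1. FS2-AEBP2 shared 97.1% of its bases with AEBP2 replicate 2 and 81.3% with replicate 1. The number of peaks called differed too, being 2877 and 6779 in the AEBP2 replicates, 2884 for FS2-AEBP2, and 14112 and 9275 in the H3K27me3 replicates, and the part of list size or depth in the nesting was not tested.

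The Hoxb9 to Hoxb13 interval held the longest stretch without a peak in every list. It measured 64105 bp in AEBP2 replicate 1 (chr11:96065411-96129515) and 46498 bp in replicate 2 (chr11:96065860-96112357). For FS2-AEBP2 it was 46377 bp (chr11:96066459-96112835). In H3K27me3 it was 15493 bp in replicate 1 (chr11:96080992-96096484) and 41844 bp in replicate 2 (chr11:96070844-96112687). The 3 AEBP2 lists left 45899 bp of it free together. The H3K27me3 replicates were far apart here, because replicate 1 had peaks within the space that replicate 2 left empty, and the mean of 28668.5 bp had an SD of 18633 bp. The sequence printed above from the middle of the longest stretch free in all lists came from the 15493 bp that no list touched.

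The edges of the space agreed in some lists and not in others. On the Hoxb13 side it began within Gm11538, a lincRNA gene (chr11:96064768-96066794), in the 3 AEBP2 lists. On the Hoxb9 side it ended at Gm53, annotated as protein-coding (chr11:96112419-96126182), in AEBP2 replicate 2, FS2-AEBP2 and H3K27me3 replicate 2, and between Gm53 and Hoxb9 in AEBP2 replicate 1. In H3K27me3 replicate 1 it lay between Gm11538 and Gm53 and reached neither. Around the start of Gm11538 peaks filled 82.1% of the window of 1 kb on either side in AEBP2 replicate 1 and 100% in the other 4 lists. Around the start of Gm53 they filled 0% and 53.1% in the AEBP2 replicates, 29.2% for FS2-AEBP2, and 77.8% and 36.6% in the H3K27me3 replicates. Around Gm11539, a pseudogene, they filled 82.4% in H3K27me3 replicate 1 and 0% in the other 4 lists.

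The microRNAs of the cluster lay on both sides of this contrast. Mir10a, inside the annotated Hoxb4 gene, and Mir196a-1, between Gm53 and Hoxb9, make short RNAs that pair with messenger RNAs through a seed, and Hoxb8 mRNA is a classic target of miR-196a. Their 5p products, with bases 2 to 8, the seed, in capitals, show 2 different seeds (sequences from RefSeq, table build GRCm38.p6, each matched once in the mm9 cluster).
mmu-miR-10a-5p: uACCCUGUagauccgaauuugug
mmu-miR-196a-5p: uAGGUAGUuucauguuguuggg
The miR-10a hairpin (chr11:96178479-96178588) had a start window wholly inside peaks in all 5 lists, and its mature 5p sequence lay in an inner block in each. This window overlaps that of the Hoxb4 start, so the values are not separate from those of Hoxb4. The miR-196a hairpin (chr11:96126478-96126579) had 0% and 55.3% of its start window inside peaks in the AEBP2 replicates, 2.70% for FS2-AEBP2 and 100% in both H3K27me3 lists. Its mature 5p sequence lay inside a peak of AEBP2 replicate 2 and of both H3K27me3 lists and outside the peaks of AEBP2 replicate 1 and FS2-AEBP2.

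The other transcripts of the cluster lay within the filled part. The start windows of Gm11536, inside Hoxb3, were 100% inside peaks in all 5 lists. Those of 0610040B09Rik, which overlaps Hoxb6 and Hoxb5, were 61.4% inside peaks in AEBP2 replicate 1 and 100% in the other lists. Those of Hoxb3os, named as antisense to Hoxb3, were 68.8% and 80.3% for AEBP2, 73.1% for FS2-AEBP2 and 100% in both H3K27me3 lists. ChIP peaks carry no strand, so a peak over overlapping genes cannot be assigned to one of them.

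CpG-island-like regions (merged 500 bp windows, GC at or above 55%, CG at 0.65 or more of its expected number) were frequent in the cluster. It held 24 of them, 21 in the Hoxb1 to Hoxb9 stretch and 3 in the interval, filling 20.1% of the stretch and 4.09% of the interval. A peak overlapped 22 of the 24 in AEBP2 replicate 1 and 24 of 24 in the other 4 lists. Among all 20675 such regions of the genome 14.2% had a peak in both AEBP2 replicates, 23.8% in both H3K27me3 replicates and 12.4% for FS2-AEBP2. The 2 regions without a peak in AEBP2 replicate 1 (chr11:96112491-96113590 and chr11:96116551-96117130) were both at Gm53. Of the 3 regions in the interval, the one at Gm11538 (chr11:96064501-96065390) had a peak in all 5 lists.

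Few Hoxb gene starts were themselves in such a region. The annotated starts of Hoxb9 and Hoxb7 were, the start of Hoxb1 was 45 bp away, and 6 of the 10 genes had one within 1 kb of the gene start. Counting every protein-coding transcript, 5 of the 16 start sites were inside one and 8 genes had one within 1 kb of a start site. Hoxb4 and Hoxb13 were the 2 without. For Hoxb4 the nearest ended 1398 bp upstream of the start, and for Hoxb13 it was 8871 bp away and outside it. Hoxb13 was the only member with no such region over its body, and it was also the member whose start lay outside the AEBP2 replicate 1 peaks. In every other list the Hoxb13 start lay in a peak, and the Hoxb4 start lay in a peak of every list.

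Inside the stretch the AEBP2 blocks filled more of these regions than of other sequence. The H3K27me3 blocks filled both about equally, but they filled 88.7% and 93.5% of the whole stretch, which left little room for a difference. Inner blocks of AEBP2 replicate 1 filled 73.2% of the island-like sequence and 38.4% of the rest, and those of replicate 2 filled 87.6% and 64.8%. For FS2-AEBP2 the values were nearer each other, 76.6% and 68.8%. For H3K27me3 they were 89.4% and 88.6% in replicate 1, and 93.0% and 93.6% in replicate 2. In the interval, where blocks filled less, the island-like sequence was filled more than the rest in every list, those of H3K27me3 included. Blocks of AEBP2 replicate 1 filled 6.63% of it and 1.18% of the rest, and the other 4 lists filled between 48.5% and 72.2% of it and between 6.21% and 25.7% of the rest. The bases of 1 cluster are not replicates, so these shares are given without a test. In 3 island-like regions, 1 over Hoxb6 (chr11:96161771-96162390) and 2 in Hoxb3 (chr11:96187051-96187610 and chr11:96193741-96194740), every base lay in an inner block in all 5 lists. The longest of these, of 1000 bp with 63 CG, gave the Hoxb3 intron sequence shown above.

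**Figure D4:**
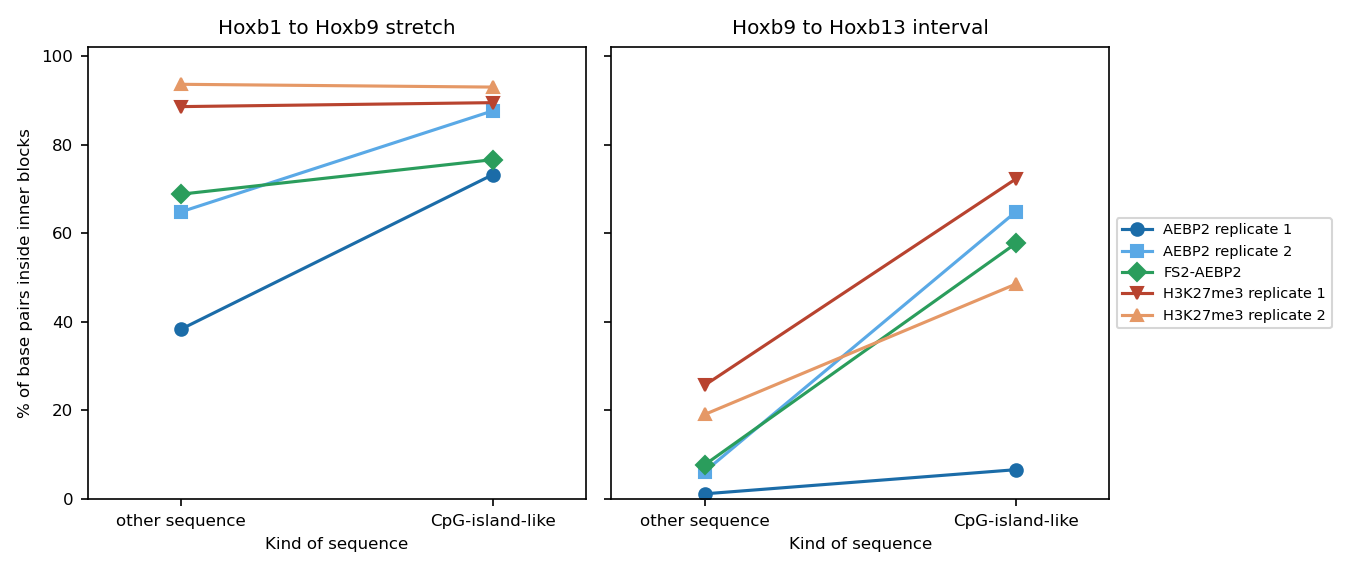
Percentage of base pairs inside inner blocks for CpG-island-like sequence and for all other sequence, in the Hoxb1 to Hoxb9 stretch (left) and the Hoxb9 to Hoxb13 interval (right), with a line for each of the 5 lists joining its 2 values. In the stretch the AEBP2 lines rose, from 38.4% to 73.2% in replicate 1, and the H3K27me3 lines were level, at 88.6% or above. In the interval the lines of all 5 lists rose.

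Beyond the cluster the mark reached further than AEBP2. Past the end of Hoxb1 the peak of AEBP2 replicate 2 reached 751 bp and those of AEBP2 replicate 1 and FS2-AEBP2 ended before it, whereas H3K27me3 reached 17402 bp and 15853 bp. Of the 96336 bp from Hoxb1 to Skap1, the next protein-coding gene and an adaptor of T cell signalling, AEBP2 peaks covered 0.217% and 0.780%, those of FS2-AEBP2 0% and those of H3K27me3 52.2% and 34.4%. The start window of Skap1 was 100% inside H3K27me3 peaks in both replicates and 0% inside the peaks of the 3 AEBP2 lists.

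On the other side AEBP2 and the mark both went on. Of the 28864 bp from Ttll6, a tubulin-modifying enzyme gene, to Hoxb13, peaks covered 19.2% and 58.9% for AEBP2, 67.5% for FS2-AEBP2, and 100% and 97.9% for H3K27me3. All 3 AEBP2 lists had peaks from about the same base on, 23627 bp before Hoxb13 in AEBP2 replicate 1, 23656 bp in replicate 2 and 23590 bp for FS2-AEBP2. The AEBP2 replicate 2 peak there was 9804 bp long and the FS2-AEBP2 peak 9126 bp, ending 13852 bp and 14464 bp short of Hoxb13, and AEBP2 replicate 1 had 2 peaks of 3780 bp and 1751 bp in the same place. The start window of Ttll6 was free of peaks in all 5 lists, and H3K27me3 peaks covered 29.5% and 10.96% of its body.

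HoxB stood apart from the other 3 Hox clusters in the interval. A start peak was present at 9 of 9 HoxC genes in every list, and at 9 of 9 HoxD genes except that Hoxd4 had none in AEBP2 replicate 1 and for FS2-AEBP2. HoxB, like HoxC, had a start peak at each gene in each list. The longest space between neighbouring Hox genes was 11479 bp in HoxA, 15817 bp in HoxC and 33819 bp in HoxD, beside 74009 bp in HoxB.

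Peak cover of the whole cluster was lowest in HoxB in every list, at 49.2% to 79.7% beside 57.7% to 98.2% in HoxA, 70.8% to 100% in HoxC and 69.5% to 100% in HoxD. This counts the Hoxb9 to Hoxb13 interval. The Hoxb1 to Hoxb9 stretch alone had 82.1% and 92.2% in the AEBP2 replicates, 91.7% for FS2-AEBP2 and 100% in both H3K27me3 lists. List by list, the stretch was at or above each other whole cluster, except HoxA for FS2-AEBP2 (93.7%). The longest stretch free of peaks was at most 10234 bp in HoxA, 8346 bp in HoxC and 8507 bp in HoxD over the 5 lists, and at least 15493 bp in HoxB. No HoxB value for this free stretch overlapped those of another cluster, whereas the ranges of cover did overlap. Clusters are single loci, so no test was made of this difference.

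**Figure D5:**
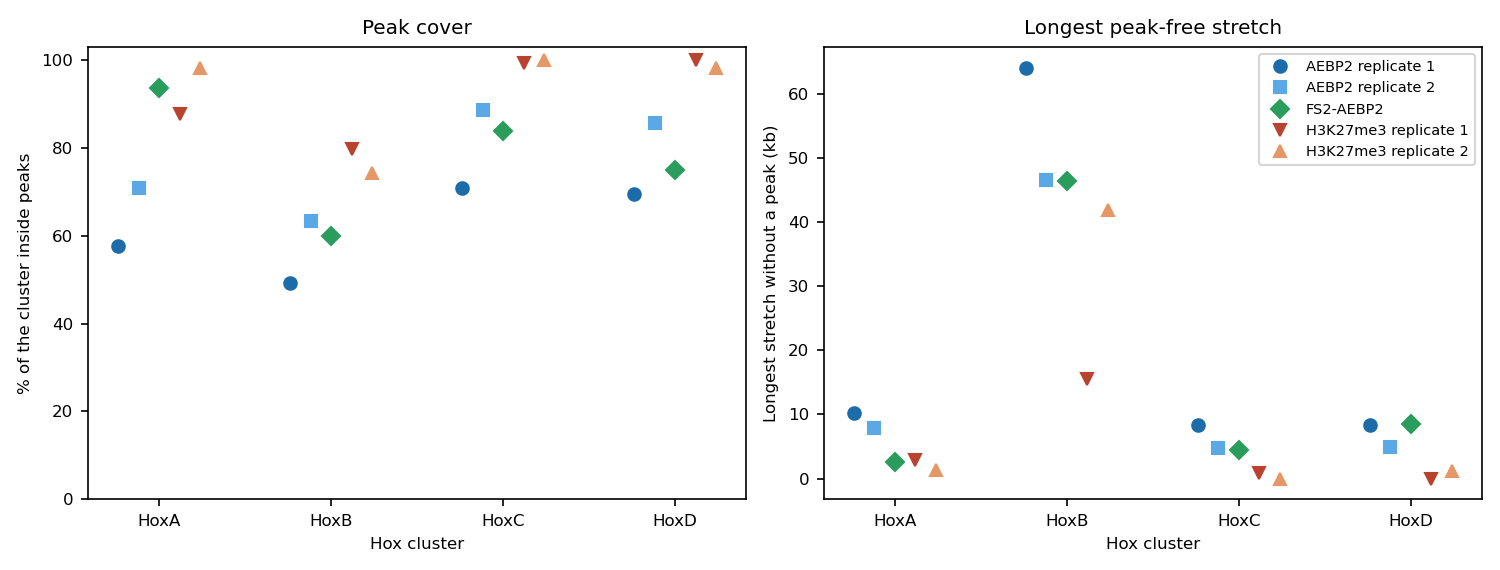
Percentage of each Hox cluster inside peaks (left) and the longest stretch without a peak in each cluster in kb (right), with 1 point for each of the 5 lists. With its Hoxb9 to Hoxb13 interval counted, HoxB had the lowest cover and the longest free stretch in every list, from 15.5 kb to 64.1 kb.

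The Pbx, Meis and Pknox families encode proteins that bind DNA together with Hox factors. Of 9 genes of these families a start peak was present at 3 in AEBP2 replicate 1 and for FS2-AEBP2, namely Meis1, Meis2 and Pknox2, beside 9.08% and 6.53% of all protein-coding genes in these lists. AEBP2 replicate 2 added Pbx3 (22.3% of all genes), and both H3K27me3 replicates added Meis3 instead (17.0% and 17.7%). Of 6 genes that mark mESCs, Pou5f1, Nanog, Sox2, Klf4, Esrrb and Zfp42, none had a start peak in the AEBP2 replicates or in H3K27me3 replicate 2, and Klf4 had one in H3K27me3 replicate 1 and for FS2-AEBP2. Over the gene body Esrrb had a peak in all 5 lists, and Klf4 again in those 2. The lists measure binding and a mark in bulk cultures and not transcription, so they give no level of any Hoxb RNA, and a site held in all cells cannot be told apart from one held in some of them.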

How the data were processed

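ChIP-seq of wild-type mESCs gave 5 peak lists, 2 for AEBP2, 2 for H3K27me3 and 1 for FS2-AEBP2. The authors aligned reads to mm9 and called peaks in each sample separately; the submitters' processing notes name Bowtie, SAMtools, Picard and MACS2 2.0.10.2, with the thresholds and the control library not given in the sources used here. The deposited score is a whole number of unstated scale and was used only as a rank within its list. Depth is unknown, because read counts are not part of these lists, and no counting interval can be given. Only the autosomes and X and Y were kept, leaving out 2 peaks of AEBP2 replicate 1 and 13 of H3K27me3 replicate 2. Inner blocks longer than 1 bp were used as deposited. Genes were those of GENCODE vM1 on NCBIM37, which is mm9, and the gene start was that of the longest entry of a symbol. Overlap needed at least 1 bp. Samples were grouped by their titles. The members and gene lists were chosen with earlier results of these data known. Named by rule were the 10 Hoxb genes, every other annotated gene that starts in the cluster and the nearest protein-coding gene on each side; the other Hox genes, Hox cofactors and mESC markers were given as counts. Other windows, a higher score minimum, joined peaks, looser island criteria and leaving out each replicate were tried as alternatives. Scripts (Python 3.11.15, numpy 2.4.6, matplotlib 3.10.9) were tested on simulated lists. SUZ12, input and AEBP2 KO samples were not analysed here, and some genes and sequences are not reported here.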

Additional observations from a re-analysis of the deposited data

How the results depend on the processing

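Of 91 values recomputed for 21 results, 82 kept their value within the spread between replicates, or within 1.5 times for counts. Counts already at their maximum could not fall with joined peaks, a wider window or a replicate left out, so they had to count as kept. The limit of 1.5 times also kept a start count of 8 beside 10. The 82 is thus not a measure of stability. With n = 2, leaving out a replicate never moves a mean by more than the SD. The values of cover and free stretch with a replicate left out therefore had to count as kept, and they say nothing about stability. With the peaks scoring under each list's median dropped, FS2-AEBP2 covered 58.0% of the cluster, 89.1% of the Hoxb1 to Hoxb9 stretch and 15.5% of the Hoxb9 to Hoxb13 interval, and with peaks within 1 kb joined it covered 62.6%, 94.1% and 19.7%. With 1 sample there is no spread to set these shifts against. With looser criteria for CpG-island-like regions (windows of 200 bp, 50% GC, ratio 0.6) the cluster held 76 of them, of which 58 had a peak in both AEBP2 replicates, 70 in both H3K27me3 replicates and 64 for FS2-AEBP2. The genome-wide share under these looser criteria was not computed, so these counts have no background beside them. The number of genes with a start peak was 10 of 10 with a peak required in both replicates. Leaving out a replicate only loosens that rule, so the count had to stay at 10. In both AEBP2 replicates the count was 8 without the peaks scoring under the median, which removed Hoxb13 and Hoxb1. It was 9 with a 500 bp window or at least 50% cover. The body count fell to 8 and 9 under that score minimum and that cover. Leaving out a replicate gave an AEBP2 cover of the interval of 6.63% (without replicate 2) or 24.3% (without replicate 1), and an H3K27me3 free stretch of 15493 bp (without replicate 2) or 41844 bp (without replicate 1). No paired analysis was possible because the results come from no test. Unknown depth and the unstated score and block thresholds limit comparisons of cover between lists, and an absent peak does not show absent binding.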
